A study of Rattus norvegicus with 12 samples.

Results

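A set of 5 genes of the unfolded protein response and the integrated stress response were followed through 12 RNA-seq libraries of rat kidney cells. They were chosen by Ensembl identifier from a stated list, not by their values, and all 5 were present among the 21698 genes of the deposited count table. They are Ddit3 (ENSRNOG00000006789), Atf4 (ENSRNOG00000017801), Hspa5 (ENSRNOG00000018294), Asns (ENSRNOG00000007546) and Trib3 (ENSRNOG00000007319). The symbols come with that list, because the count table gives identifiers only and the RefSeq gene table at hand matched 0 of them. For the same reason no marker gene of either line and no other gene of these pathways could be looked up by name.

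The libraries fall into 4 groups of 3. NRK-52E, an immortal rat line used as a model of kidney tubule epithelium, had received vehicle or 40 µM cisplatin, a platinum drug that crosslinks DNA. NRK-49F, a rat kidney fibroblast line, had been kept in conditioned medium taken from NRK-52E cells, either without treatment or after 40 µM cisplatin (untreated medium and cisplatin medium below). All cells were kept in DMEM with 5% FBS, and the protocol for the conditioned medium has 6 h of drug, a rinse and 24 h in fresh medium, whereas the design text gives 24 h of treatment. The labels leave unclear which schedule the sequenced epithelial cells had. Each group is 1 line in culture, and nothing in the labels ties its 3 libraries to separate cultures. The p-values therefore measure only the spread among these libraries, which can be technical. A lower level of an mRNA may reflect fewer expressing cells or less RNA per cell, which cannot be told apart in bulk libraries. Library totals were 9684887 to 12549675 counts, and the lowest count of any of the 5 genes was 211 (Ddit3 in an NRK-52E vehicle library), so none was limited by a floor on low counts.

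As background, cells that accumulate unfolded proteins in the endoplasmic reticulum, or that lack amino acids or meet other stresses, use linked pathways. Sensors in the reticulum membrane (PERK, IRE1 and ATF6) respond to unfolded protein, and PERK and other kinases phosphorylate the initiation factor eIF2, which lowers general protein synthesis while the mRNA of the transcription factor ATF4 is translated more. ATF4 raises genes of amino acid supply such as Asns, and the transcription factor CHOP, encoded by Ddit3, and both act on Trib3. ATF6 and the IRE1 product XBP1 raise chaperones of the reticulum, of which BiP, encoded by Hspa5, is the most used marker. These pathways are known to be active in injured tubule cells.

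Hspa5 and Trib3 are shown by the 250 bases before their RefSeq start (GRCr8), since these 2 windows held a match to a motif searched and the 2 genes differed in direction in NRK-52E. The motifs were searched on both strands. They were the endoplasmic reticulum stress element ERSE (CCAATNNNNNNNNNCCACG), ERSE-II (ATTGGNCCACG), the core of the C/EBP-ATF composite element that ATF4 binds (TGATGNAA) and the core of the unfolded protein response element (TGACGTG). Capitals mark the matches, and both sequences are written 5′ to 3′ on the gene's strand. The windows lie at chr3:38452766-38453015 on the plus strand and chr3:161275534-161275783 on the minus strand.
Hspa5: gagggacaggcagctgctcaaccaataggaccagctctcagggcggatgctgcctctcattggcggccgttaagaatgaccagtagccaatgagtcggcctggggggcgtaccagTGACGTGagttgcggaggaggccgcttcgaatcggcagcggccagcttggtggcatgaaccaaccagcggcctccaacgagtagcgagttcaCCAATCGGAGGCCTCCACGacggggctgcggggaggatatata
Trib3: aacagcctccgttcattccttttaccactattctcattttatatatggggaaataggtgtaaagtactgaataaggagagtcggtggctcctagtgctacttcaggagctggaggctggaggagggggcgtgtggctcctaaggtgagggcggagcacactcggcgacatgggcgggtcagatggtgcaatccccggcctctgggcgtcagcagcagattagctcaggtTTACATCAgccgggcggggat

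The Hspa5 window held 1 ERSE, from 43 to 25 bases before the start, and 1 TGACGTG, from 135 to 129 bases before it, which do not overlap. The Trib3 window held 1 match to TGATGNAA, read on the opposite strand, from 21 to 14 bases before the start. Among 33469 rat promoter windows of the same 250 bases, 0.0657% held an ERSE, 0.0418% an ERSE-II, 3.4% a TGATGNAA and 1.54% a TGACGTG. The windows of Ddit3, Atf4 and Asns held 0 matches to the 4 motifs, which says only that these letters are not in these windows. A match is a description of the sequence and not a measured binding site.

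Of the 5 genes, 4 rose with cisplatin in NRK-52E and fell in cisplatin medium in NRK-49F, whereas Hspa5 fell in both. Ddit3 moved most in both lines. It rose 7.65-fold in the epithelial cells and was 3.78-fold lower in fibroblasts in cisplatin medium. All 5 were highest in NRK-49F with untreated medium. The share of all genes highest in that group was not counted. Nor was the share of all genes whose groups do not overlap, which is described for single genes below. Between the control groups, 40.9% of 13127 tested genes were called lower in NRK-52E (edgeR adjusted p below 0.05). Levels below are CPM, counts relative to the library total after scaling by edgeR's TMM factors over all 12 libraries. These factors assume that most genes do not change, so levels are relative to the bulk of genes. The edgeR calls at an adjusted p below 0.05 did not meet that assumption. They were 9536 of 12508 tested genes in NRK-52E, 7123 of 11525 in NRK-49F and 10729 of 13127 between the control groups of the lines. For the difference of the responses of the lines they were 8724 of 13127. Levels are compared between groups for 1 gene and never between genes.

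**Figure D1:**
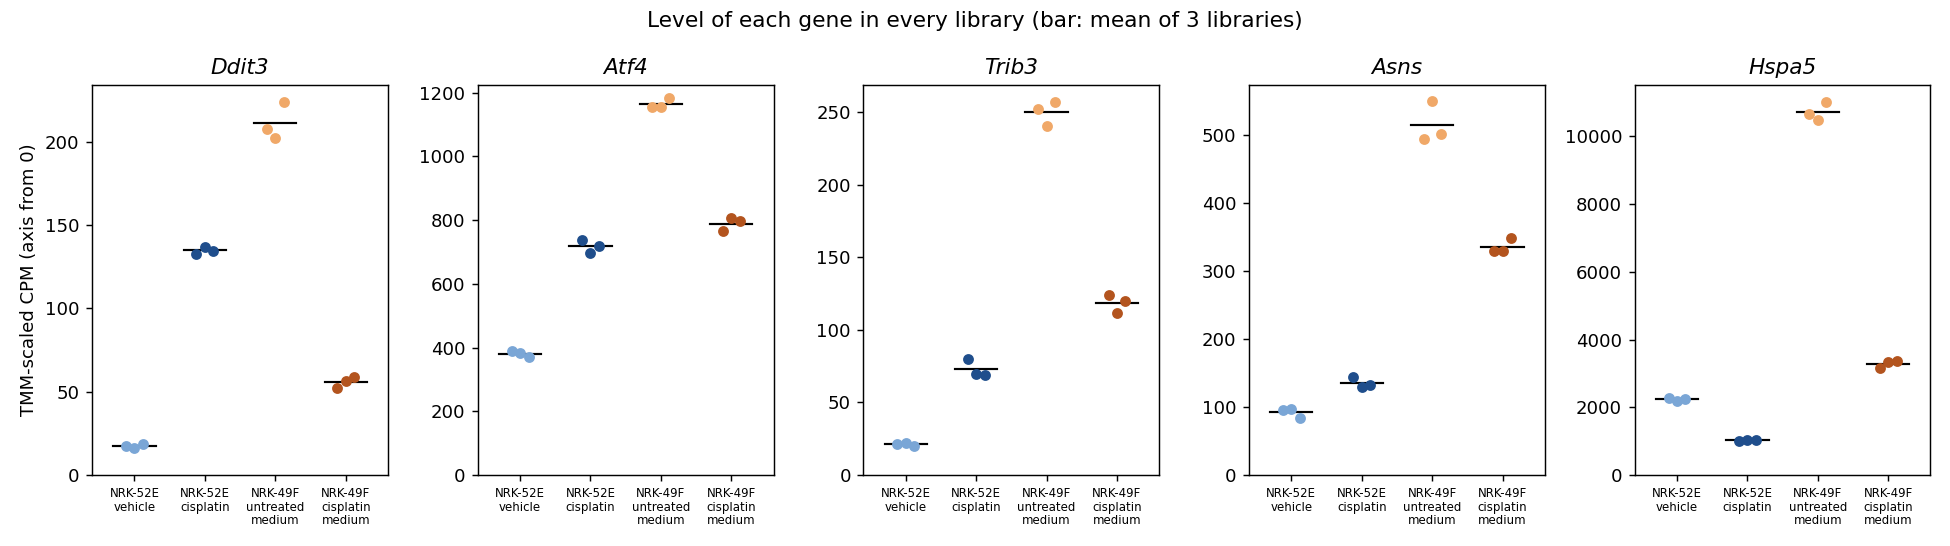
Level of each gene (TMM-scaled CPM, linear axes from 0, a separate scale for each gene) in the 12 libraries, with points for libraries and a bar for the mean of 3. In every panel the NRK-49F libraries in untreated medium are the highest, and the groups do not overlap. The share of all genes with this pattern was not counted.

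The first comparison asked what cisplatin did to these genes in the epithelial cells. Among the transcription factors, Ddit3 was at 17.3, 16.3 and 18.5 CPM in the vehicle libraries and at 133, 137 and 135 CPM in the cisplatin libraries. Each cisplatin library was far above each vehicle library, and the spread within groups was small. The rise was 7.65-fold (log2 2.94, standard error 0.06, edgeR quasi-likelihood test, Benjamini-Hochberg adjusted p = 1.65e-30). Only 541 of 12508 tested genes (4.33%) had a higher log2 fold change. In RefSeq GRCr8 the span of the Ddit3 gene overlaps Mars1 and an unnamed protein-coding locus. Shared exons were not examined, and the strand setting of the counting is not given. Whether reads of these neighbours entered the Ddit3 counts is therefore not known. Atf4, whose protein acts upstream of the other ATF4 targets here, was at 389, 384 and 371 CPM with vehicle and at 736, 697 and 719 CPM with cisplatin. The groups did not overlap, and Atf4 mRNA rose 1.86-fold (log2 0.90, standard error 0.04, edgeR adjusted p = 8.88e-21).

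Trib3 encodes a pseudokinase that binds AKT and ATF4 and dampens their activity. It was at 21.7, 21.8 and 20.3 CPM with vehicle and at 80.0, 69.5 and 68.6 CPM with cisplatin. Again no vehicle library reached a cisplatin library, and the rise was 3.39-fold (log2 1.76, standard error 0.07, edgeR adjusted p = 4.28e-22). Asns encodes asparagine synthetase, which makes asparagine from aspartate and glutamine. It was at 96.4, 96.9 and 84.6 CPM with vehicle and at 144, 129 and 132 CPM with cisplatin. This was the smallest change of the 5 genes in this line, at 1.45-fold (log2 0.53, standard error 0.05, edgeR adjusted p = 3.44e-11), and the groups still did not overlap.

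Hspa5, the chaperone gene, went the other way in NRK-52E. It was at 2268, 2193 and 2245 CPM with vehicle and at 1002, 1035 and 1034 CPM with cisplatin. All cisplatin libraries lay below all vehicle libraries, and the level was 2.21-fold lower (log2 -1.14, standard error 0.04, edgeR adjusted p = 3.36e-24). As a share of all counts of a library, Hspa5 fell from 0.254% ± 0.004 to 0.119% ± 0.002 (SD, n = 3 each).

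In NRK-52E, 4 of the 5 genes thus passed the test as higher and 1 as lower, at an adjusted p below 0.05. These shares have to be read against a background in which 38.7% of the tested genes were called higher and 37.6% lower. With at least 2-fold required as well, Ddit3 and Trib3 were called higher and Hspa5 lower, against 14.6% and 7.78% of all tested genes, while Atf4 and Asns no longer counted. A higher log2 fold change than that of Trib3, Atf4 and Asns was found for 8.34%, 15.9% and 24.4% of the tested genes. A lower one than that of Hspa5 was found for 5.87%. The median log2 fold change was 0.90 over the 5 genes and 0.01 over all tested genes.

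The second comparison was of fibroblasts in the 2 conditioned media, by which the design text examines signals from injured epithelial cells to fibroblasts. Ddit3 was at 208, 202 and 224 CPM in untreated medium and at 52.1, 56.3 and 58.7 CPM in cisplatin medium. The groups were far apart, and the level was 3.78-fold lower (log2 -1.92, standard error 0.05, edgeR adjusted p = 1.65e-26). Only 79 of 11525 tested genes (0.685%) had a lower log2 fold change. Hspa5 was at 10643, 10466 and 11014 CPM in untreated medium and at 3162, 3338 and 3374 CPM in cisplatin medium. It was 3.25-fold lower there (log2 -1.70, standard error 0.04, edgeR adjusted p = 3.73e-30), and 112 tested genes (0.972%) had a lower log2 fold change. Its share of all counts fell from 0.867% ± 0.024 to 0.307% ± 0.010 (SD, n = 3 each). Ddit3 and Hspa5, the CHOP and BiP genes, were thus both near the lower end of the response in fibroblasts, whereas in NRK-52E they stood on opposite sides.

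The other ATF4-related genes also fell in fibroblasts, by less. Trib3 was at 252, 240 and 257 CPM in untreated medium and at 124, 112 and 120 CPM in cisplatin medium, which is 2.11-fold lower (log2 -1.08, standard error 0.05, edgeR adjusted p = 6.97e-21). Asns was at 495, 551 and 502 CPM and at 329, 330 and 349 CPM, or 1.53-fold lower (log2 -0.61, standard error 0.04, edgeR adjusted p = 3.82e-15). Atf4 was at 1156, 1155 and 1184 CPM and at 765, 807 and 796 CPM, or 1.47-fold lower (log2 -0.56, standard error 0.04, edgeR adjusted p = 7.32e-16). For none of these 3 genes did a library in cisplatin medium reach a library in untreated medium. A lower log2 fold change than that of Trib3, Asns and Atf4 was found for 2.72%, 8.46% and 9.80% of the tested genes.

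All 5 genes were called lower in NRK-49F, where 31.0% of the tested genes were. Ddit3, Hspa5 and Trib3 were called lower by at least 2-fold, as were 3.31% of the tested genes. The median log2 fold change was -1.08 over the 5 genes and 0.02 over all tested genes. This background depends on the scaling. With library size as the only scaling the median of all tested genes was higher by 0.20 (log2), and 16.7% of the tested genes were called lower and 75.4% of the calls were increases, against 49.9% of the calls with TMM factors. The 5 genes were called lower under that scaling too, with log2 fold changes of -1.72 for Ddit3, -1.499 for Hspa5, -0.88 for Trib3, -0.41 for Asns and -0.36 for Atf4, where Asns and Atf4 had -0.61 and -0.56 with TMM factors.

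**Figure D2:**
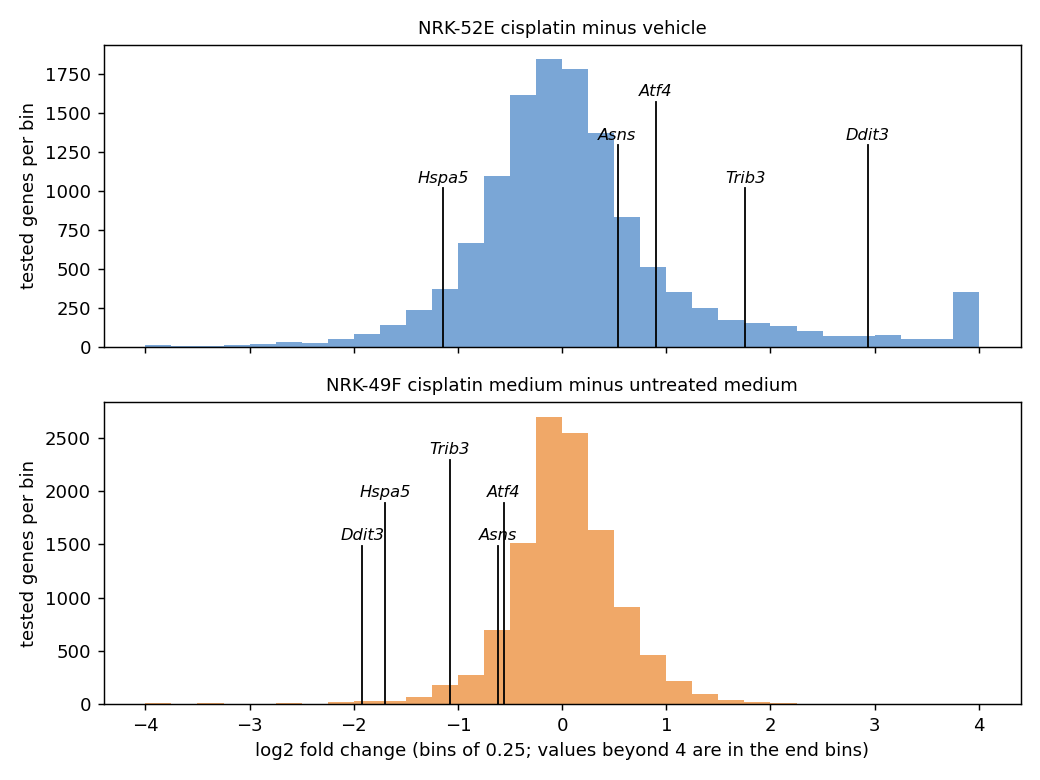
Number of tested genes per bin of log2 fold change in NRK-52E (upper panel) and NRK-49F (lower panel), with vertical lines at the values of the 5 genes (line heights carry no value). In NRK-52E 4 lines lie right of 0 and Hspa5 left of it, and in NRK-49F all 5 lie left of 0.

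Side by side, Ddit3, Atf4, Trib3 and Asns rose in the epithelial line and fell in the fibroblasts, a combination called for 15.5% of the 10937 genes tested in both lines. Ddit3 and Trib3 did so by at least 2-fold in both, as did 124 of these genes (1.13%). Hspa5 fell in both, as did 9.17% of the genes, and by at least 2-fold in both, as did 21 genes (0.192%). The comparisons share no library. Within the ATF4-related group the sizes were ordered alike at the upper end, with Ddit3 first and Trib3 next in both lines. Atf4 and Asns changed least in both lines, Atf4 by more than Asns in NRK-52E (0.90 and 0.53 on the log2 scale) and by about as much in NRK-49F (-0.56 and -0.61).

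**Figure D3:**
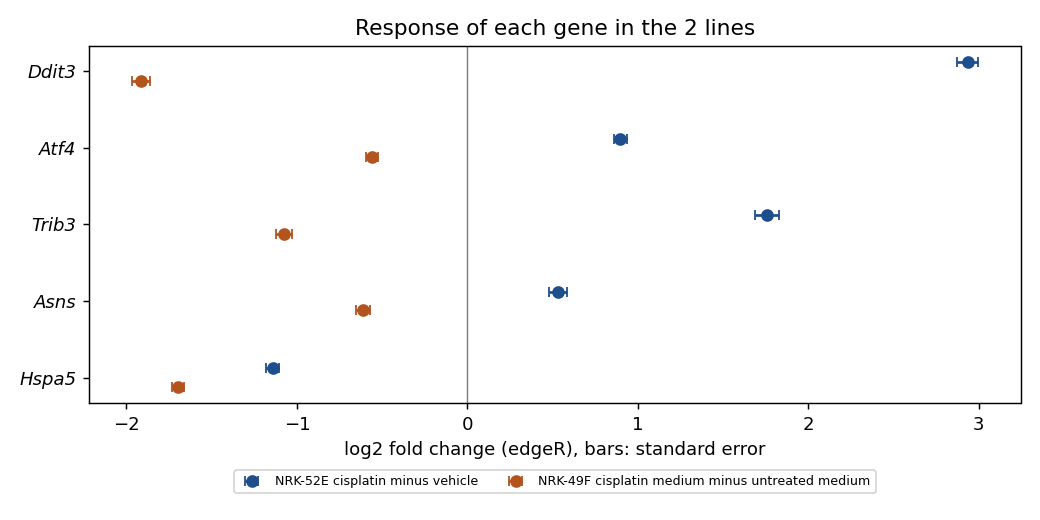
Log2 fold change of each gene with its standard error, in NRK-52E with cisplatin (blue) and in NRK-49F with cisplatin medium (brown), from edgeR. Ddit3, Atf4, Trib3 and Asns lie on opposite sides of 0 in the 2 lines, and Hspa5 lies below 0 in both.

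Whether the responses differed between the lines was tested directly, as a contrast of the 4 group means in a fit of all 12 libraries. The log2 fold change was higher in NRK-52E than in NRK-49F for all 5 genes. The difference was 4.87 for Ddit3 (standard error 0.08, edgeR adjusted p = 5.05e-41) and 2.85 for Trib3 (standard error 0.08, edgeR adjusted p = 2.34e-31). It was 1.47 for Atf4 (standard error 0.05, edgeR adjusted p = 8.88e-28) and 1.16 for Asns (standard error 0.07, edgeR adjusted p = 1.77e-19). Hspa5, which fell in both lines, fell by less in NRK-52E, with a difference of 0.58 (standard error 0.05, edgeR adjusted p = 9.66e-14). Against this, 33.9% of 13127 tested genes were called higher in this contrast. At a difference of at least 1 on the log2 scale the calls were 4 of the 5 genes, without Hspa5, and 15.3% of the tested genes. Since NRK-52E met the drug and NRK-49F a medium, line and agent cannot be told apart. With library size only, the median of this difference over all tested genes was lower by 0.17, calls of a higher difference made up 40.9% of calls in place of 51.0%, and the Hspa5 difference was 0.40 (edgeR adjusted p = 2.24e-09, the highest of its 18 alternatives).

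The levels themselves differed between the lines before any cisplatin. In NRK-52E with vehicle, compared with NRK-49F in untreated medium, Ddit3 was 12.1-fold lower (log2 -3.60, standard error 0.06, edgeR adjusted p = 5.33e-42) and Trib3 11.7-fold lower (log2 -3.55, standard error 0.06, edgeR adjusted p = 8.54e-42). Asns was 5.57-fold lower, Hspa5 4.79-fold lower and Atf4 3.06-fold lower, with edgeR adjusted p values of 1.04e-38, 2.46e-42 and 5.42e-36. All 5 were called lower in the epithelial line and all by at least 2-fold, against 40.9% and 20.1% of the tested genes. The fibroblasts had been in conditioned medium and the vehicle-treated epithelial cells are not labelled so, hence line and medium cannot be told apart here. Scaling moved this comparison furthest. When library size alone was used, the median of all tested genes was higher by 0.49 (log2) and 68.9% of calls were increases in place of 50.0%, while the 5 genes were still called lower, with log2 differences from -1.12 for Atf4 to -3.11 for Ddit3.

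The order of the 4 groups set the genes apart. For Trib3, Asns and (with TMM or RLE factors) Atf4 the order from low to high was NRK-52E vehicle, NRK-52E cisplatin, NRK-49F cisplatin medium and NRK-49F untreated medium. Trib3 thus stood at 21.3 ± 0.868, 72.7 ± 6.36, 118 ± 6.09 and 250 ± 8.43 CPM, and Asns at 92.6 ± 6.98, 135 ± 7.84, 336 ± 11.2 and 516 ± 30.4 CPM (SD, n = 3 each). The lines were closer in their cisplatin groups than in their control groups, at a ratio of NRK-49F to NRK-52E of 1.63 against 11.7 for Trib3 and 2.49 against 5.57 for Asns. For Ddit3 the middle of the order was exchanged: 55.7 ± 3.38 CPM in NRK-49F with cisplatin medium lay below 135 ± 1.97 CPM in NRK-52E with cisplatin (SD, n = 3 each). For Hspa5 the lowest group was NRK-52E with cisplatin, at 1024 ± 18.5 CPM, and the next NRK-52E with vehicle, at 2235 ± 38.3 CPM (SD, n = 3 each).

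Neighbouring groups in these orders did not overlap for any of the 5 genes (the share over all genes was not counted). The closest were the 2 cisplatin groups for Atf4, at 718 ± 19.7 CPM in NRK-52E and 790 ± 21.6 CPM in NRK-49F (SD, n = 3 each), a ratio of 1.10. Their order is not settled, since with library size only it turned around, to 833 ± 20.0 and 737 ± 19.0 CPM. Ddit3 in NRK-52E with cisplatin and in NRK-49F with untreated medium also came closer under that scaling, from 135 ± 1.97 and 211 ± 11.2 CPM to 156 ± 2.84 and 171 ± 9.25 CPM, at a ratio of 1.09 in place of 1.57. Every other order of neighbours for the 5 genes was the same with TMM, RLE and library-size scaling.

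Ratios of 2 genes within a library need no scaling between libraries, so the counts were also set against those of Hspa5. The log2 ratio of Ddit3 to Hspa5 was -7.03, -7.07 and -6.92 in NRK-52E with vehicle and -2.91, -2.92 and -2.94 with cisplatin. The ratio was 16.9 times as high with cisplatin, with Ddit3 higher and Hspa5 lower. The ratio to Hspa5 was 7.44 times as high for Trib3, 4.11 times for Atf4 and 3.19 times for Asns. In NRK-49F the log2 ratio of Ddit3 to Hspa5 was -5.68, -5.69 and -5.62 in untreated medium and -5.92, -5.89 and -5.84 in cisplatin medium. This change of -0.22 was small beside the falls of both genes, so in fibroblasts Ddit3 and Hspa5 went down nearly in step. Relative to Hspa5, Atf4, Asns and Trib3 were 2.20, 2.12 and 1.54 times as high in cisplatin medium, having fallen less than Hspa5 did. The groups did not overlap in any of these 8 comparisons (the share over other pairs of genes was not counted). Each had p = 0.1 by an exact permutation test (two-sided), and adjusted p = 0.1 over the 8, the lowest that groups of 3 can reach.

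With Atf4 as the reference, the log2 ratio of Ddit3 went up by 2.04 and that of Trib3 by 0.86 in NRK-52E, whereas that of Asns changed by -0.37. In NRK-49F the changes were -1.36 for Ddit3, -0.52 for Trib3 and -0.05 for Asns. Ddit3 and Trib3 mRNA thus moved further than Atf4 mRNA in both lines and in its direction, whereas Asns mRNA moved less than Atf4 in NRK-52E and about as far in NRK-49F. No test was run on these ratios to Atf4.

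**Figure D4:**
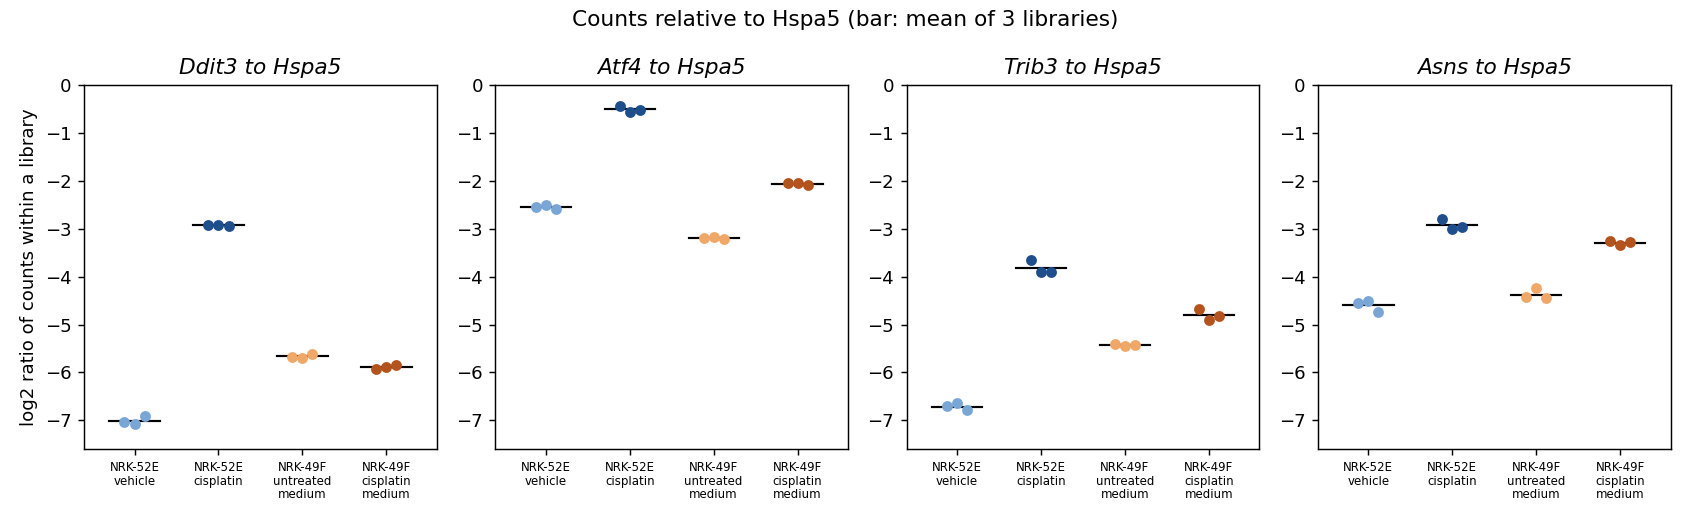
Log2 ratio of the counts of Ddit3, Atf4, Trib3 and Asns to those of Hspa5 in each of the 12 libraries, with points for libraries and a bar for the mean of 3. With cisplatin all 4 ratios are higher in NRK-52E, and in NRK-49F with cisplatin medium 3 are higher and that of Ddit3 is slightly lower.

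The likeness of 2 patterns over the 12 libraries was measured as the root mean square difference of log2 CPM, each gene centred on its own mean, where 0 means the same pattern. Among the 5 genes the most alike were Asns and Trib3 (0.48) and Atf4 and Asns (0.53), and the least alike Ddit3 and Hspa5 (1.498). Of 11235 other genes, 2446 lay within 0.5 of Atf4, 735 within 0.5 of Asns and 143 within 0.5 of Trib3. The counts were 61 for Hspa5 and 13 for Ddit3. Such distances were thus common around Atf4 and less so around Asns and Trib3. The median gene stood at 1.07 from Asns, 0.72 from Atf4 and 1.45 from Ddit3. Ddit3 and Hspa5 were thus about as far apart as Ddit3 and the median gene. Among 11235 other genes with a mean of at least 2 CPM, the nearest to Ddit3 was ENSRNOG00000000640, at 0.23, where the median gene stood at 1.45. Its means were 1.45 ± 0.187 and 12.3 ± 1.10 CPM in NRK-52E with vehicle and cisplatin and 13.6 ± 1.29 and 4.99 ± 0.481 CPM in NRK-49F with untreated and cisplatin medium (SD, n = 3 each). The lowest of these lay under 2 CPM, a cut applied to the mean over all libraries. The prior count of 2 in the log2 CPM weighs more on so low a level. The nearest to Hspa5 was ENSRNOG00000010944, also at 0.23, with a median of 1.28 over all. Its means were 488 ± 17.5 and 198 ± 6.76 CPM in NRK-52E and 1534 ± 49.8 and 566 ± 5.34 CPM in NRK-49F, in the same order (SD, n = 3 each). The 12 libraries share 4 groups, so these distances mostly describe the 4 group means.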

How the data were processed

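The authors deposited 1 table of raw counts per Ensembl rat gene for the 12 RNA-seq libraries. STAR 2.7.10a, Subread and featureCounts are named in the submitters' processing notes. The build, annotation and strand setting used for counting: not given in the sources used here. Columns were assigned by sample title. The 5 genes, the motifs and the tests were chosen with earlier results of these data known.

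Each line was tested with edgeR 4.0.16 in R 4.3.3 across all genes kept by filterByExpr (minimum count 10, minimum total 15), with TMM factors, glmQLFTest on the group and Benjamini-Hochberg adjustment at 0.05. Line contrasts came from 1 fit of all 12 libraries. A standard error is the absolute log2 fold change over the square root of F. The steps were tested on data simulated from the mean profile of a single group with few changed genes. Such data could not test the scaling between libraries. TMM factors over 12 libraries were 0.808 to 1.17. The common biological coefficient of variation was 3.76% for the epithelial line and 3.47% for the fibroblasts. Chi-square per degree of freedom between libraries of a group was 1.67 to 3.84, above sampling noise, so no library was treated as deposited in duplicate, which does not show that they are separate cultures. Ratios used a pseudocount of 0.5 and distances a prior count of 2. Genes to be named were the 5 and, without symbols, the single nearest gene of Ddit3 and of Hspa5. Pathway and marker lists by symbol could not be applied. Alternatives were library-size and RLE scaling, DESeq2 1.42.0, no filter, a 2-fold requirement, a replicate block and leaving out each library. Promoter windows are RefSeq's for GRCr8, matched by symbol for all 5 genes. Figures used matplotlib 3.10.9.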

Additional observations from a re-analysis of the deposited data

Results flagged for a closer look

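All 5 genes are listed because their responses in the 2 lines differed when that difference was itself tested. The same test called 8724 of 13127 tested genes, in either direction, so such a call is common here. The log2 fold change in NRK-52E minus that in NRK-49F was 4.87 for Ddit3, 2.85 for Trib3, 1.47 for Atf4, 1.16 for Asns and 0.58 for Hspa5 (edgeR adjusted p from 5.05e-41 to 9.66e-14). Line and agent cannot be told apart in it. Groups of 3 libraries were too small for a search for single deviating libraries.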

How the results depend on the processing

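The 20 log2 differences (5 genes in 4 comparisons) kept their direction in all 310 alternatives, and 305 kept their call. The other 5 did not reach the added 2-fold requirement, and 0 calls were lost under any other setting. Values under the 2-fold requirement were those of the main fit, so their direction could not change. That requirement left 3 of the 5 as calls in each line, and reduced the calls among all genes to 2795 from 9536 in NRK-52E, to 786 from 7123 in NRK-49F, to 3652 from 8724 for the difference of the responses and to 5393 from 10729 between the lines. With library size only, increases and decreases among all genes were 5918 and 1926 in NRK-49F (3555 and 3568 with TMM factors), 3602 and 5196 for the difference of the responses (4447 and 4277) and 7699 and 3481 between the lines (5365 and 5364). The ratios to Hspa5 kept their direction with a pseudocount of 2 and without any 1 library. With Atf4 as the reference, 3 log2 ratios changed sign, to -0.37 for Asns in NRK-52E and to -0.055 for Asns and -0.52 for Trib3 in NRK-49F, as another reference gene measures another ratio. The labels do not say whether replicate numbers in the titles pair the libraries. Deviations of same-numbered libraries had correlations of -0.051 to 0.021, and not every library correlated best with its own number. With 3 libraries in a group, such values cannot exclude a pairing. With the replicate block, 9382 genes were called in NRK-52E, 7020 in NRK-49F, 8577 for the difference and 9853 between the lines, and all 5 genes kept their calls. Depth did not limit the 5 genes.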
